A study of Mus musculus with 8 samples.

Results

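The family C genes of the Vmn2r pheromone receptors, Vmn2r1 to Vmn2r7, were described in bulk RNA from the mouse vomeronasal epithelium. They were chosen by name, as 7 genes of 1 cluster on chromosome 3. Counts were at hand for 6 of them, Vmn2r1 to Vmn2r6, out of 48831 genes in the count tables, and Vmn2r7 was not analysed here. The tables held 222 Vmn2r genes in all, made up of these 6, 115 other intact (protein-coding) genes and 101 pseudogenes. All mice were C57BL/6J aged 8 weeks, with no allele or agent named in the labels. The 8 libraries formed 4 groups of 2: male pools and female pools, each library of non-flushed tissue pooled from 2 mice, and flushed males and flushed females, each library from 1 mouse. The extraction protocol given with every sample describes flushing, whereas the pools are described as non-flushed, which was followed here. Preparation, pooling and the sequencing lane and mapping folder named in the files changed together, so they cannot be told apart. Total counts per library ran from 18763557 to 22096792 in pools and from 22101913 to 24965088 in flushed mice.

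Vmn2r receptors are G protein-coupled receptors with a large extracellular domain, made by the neurons of the basal layer of the vomeronasal epithelium, where they signal through the G protein subunit encoded by Gnao1. A basal neuron usually carries a receptor of families A, B or D, which differs from cell to cell, together with family C receptors, which are shared by many cells and are regarded as co-receptors. Vmn2r1 and the group of Vmn2r2 to Vmn2r7 are known mainly from different basal neurons, and a subset of basal neurons also makes the non-classical class I molecules encoded by the H2-Mv genes.

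The members differ little in sequence, which bears on every count below. Each has a coding sequence of 2727 to 2748 bases in 6 coding exons of the GENCODE M21 annotation (GRCm38). The counted exons of the 6 measured genes lie on chromosome 3 between 64081642, in Vmn2r1, and 64565298, in Vmn2r6. Vmn2r1 shared between 84.4 and 88.0% of aligned coding bases with the other members (6 pairs, median 85.7%). Vmn2r2 to Vmn2r7 shared between 86.8 and 98.8% with each other (15 pairs, median 88.7%), and Vmn2r6 and Vmn2r7 were the closest pair, with 2708 identical bases of 2742 aligned. Vmn2r2 and Vmn2r5 shared 93.3%. The following stretch of 100 coding bases, in which the mean identity of the 21 pairs equals the median over such stretches (93.1%), shows how alike reads from these genes can be. It is the coding strand, 5′ to 3′, and capitals mark bases unlike those carried by most of the 7 genes in that column.
Vmn2r1: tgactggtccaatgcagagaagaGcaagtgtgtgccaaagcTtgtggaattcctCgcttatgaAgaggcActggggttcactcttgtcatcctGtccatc
Vmn2r2: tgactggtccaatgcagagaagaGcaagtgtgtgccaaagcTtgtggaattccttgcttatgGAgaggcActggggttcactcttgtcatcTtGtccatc
Vmn2r3: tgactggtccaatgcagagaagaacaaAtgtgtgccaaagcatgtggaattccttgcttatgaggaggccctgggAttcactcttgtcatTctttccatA
Vmn2r4: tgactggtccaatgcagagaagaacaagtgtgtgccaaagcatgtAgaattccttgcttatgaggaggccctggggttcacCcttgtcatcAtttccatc
Vmn2r5: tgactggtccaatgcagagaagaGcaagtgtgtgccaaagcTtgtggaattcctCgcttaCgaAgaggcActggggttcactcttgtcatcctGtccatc
Vmn2r6: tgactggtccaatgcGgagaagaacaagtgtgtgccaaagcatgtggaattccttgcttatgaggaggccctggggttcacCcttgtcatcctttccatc
Vmn2r7: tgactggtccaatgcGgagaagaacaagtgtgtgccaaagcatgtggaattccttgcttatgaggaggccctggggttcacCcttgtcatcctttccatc
All 7 genes carried the same base in 84 of the 100 columns. Vmn2r6 and Vmn2r7 had no difference here, and Vmn2r2 and Vmn2r5 departed from the majority in 7 bases each. Vmn2r1 lies on the plus strand, with this stretch at chr3:64104507-64104606. The others lie on the minus strand, at chr3:64117284-64117383 for Vmn2r2, chr3:64259813-64259912 for Vmn2r3, chr3:64389473-64389572 for Vmn2r4, chr3:64491673-64491772 for Vmn2r5, chr3:64538413-64538512 for Vmn2r6 and chr3:64691512-64691611 for Vmn2r7. In each gene the stretch lies within 1 coding exon.

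Reads were 100 bases long, so windows of that length show how much of each gene a read could tell from all other annotated transcripts. In Vmn2r3, 94.1% of windows occurred in no other gene, in Vmn2r1 87.0% and in Vmn2r2 84.1%. The share was 74.9% for Vmn2r4 and 63.8% for Vmn2r6, and 34.7% of the Vmn2r6 windows were also present in Vmn2r7. Vmn2r5 had the smallest share of its own, 41.4%. Its windows were shared mostly with the pseudogene Vmn2r-ps11 (49.4%) and with Gm26939 (39.4%), an annotated non-coding transcript of the same cluster that was not analysed here. Accordingly, 43 of the 48 counts of members (6 genes in 8 libraries) were not whole numbers. Each alignment of a read with several alignments added only a fraction to the gene it fell on. The level of any single member is uncertain for this reason, that of Vmn2r5 most of all by this measure.

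**Figure D1:**
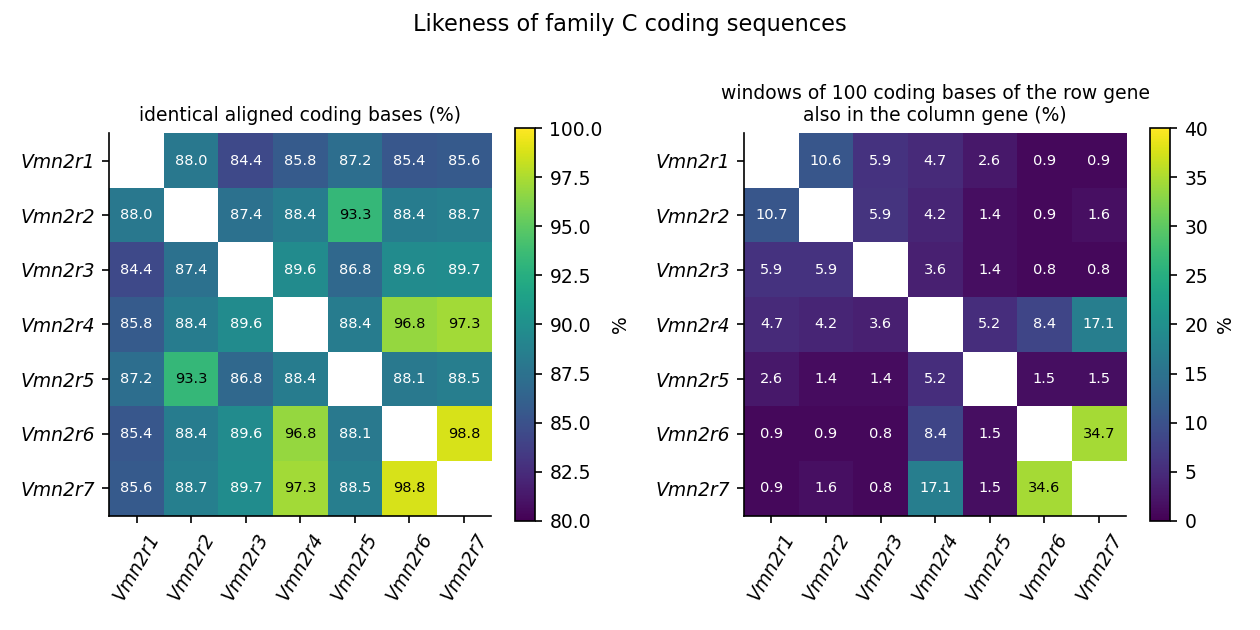
Likeness of the 7 family C coding sequences. Left, the percentage of aligned coding bases that are identical in each pair of genes; right, the percentage of windows of 100 coding bases of the row gene that also occur in the transcripts of the column gene. Vmn2r4, Vmn2r6 and Vmn2r7 form the most alike trio (96.8 to 98.8% identity), and 34.7% of Vmn2r6 windows occur in Vmn2r7.

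Levels of different genes were compared per length, as RPKM (counts scaled to the counted exon length and to the library size). Vmn2r6 had the highest level of the 6 members, 33.9 ± 11.04 RPKM (mean ± SD, n = 8 libraries, range 22.8 to 46.7). Vmn2r2 followed with 26.1 ± 7.78 RPKM (17.4 to 35.9), then Vmn2r4 with 22.3 ± 6.86 RPKM (14.9 to 31.2) and Vmn2r1 with 20.9 ± 5.54 RPKM (15.2 to 27.6). Vmn2r3 had 14.98 ± 5.58 RPKM (9.72 to 22.4). Vmn2r5 lay far below the others at 2.07 ± 0.942 RPKM (1.10 to 3.25), from counts of 58.0 to 224.1 per library. The ranges of neighbouring genes among the 5 higher members overlapped over the 8 libraries, whereas within a library the order was nearly fixed.

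Each pair of members was compared within libraries by an exact two-sided sign-flip permutation test of the log2 RPKM difference. Of 15 pairs, 14 differed (exact permutation p = 0.00781, the smallest that 8 libraries allow, adjusted p = 0.00837 over the 15 pairs), and in these the same gene was higher in 8 of 8 libraries. The test asks only whether the order of measured levels holds across libraries. It cannot tell a true difference from a bias of shared reads that is the same in every library. Neighbours in the order were Vmn2r6 over Vmn2r2, by 0.36 ± 0.075 on the log2 scale, Vmn2r2 over Vmn2r4, by 0.23 ± 0.072, and Vmn2r1 over Vmn2r3, by 0.52 ± 0.17 (mean ± SD, n = 8, exact test as above). The step from Vmn2r3 to Vmn2r5 was 2.91 ± 0.19 on the same scale, a 7.5-fold difference. Vmn2r4 and Vmn2r1 could not be ordered, with Vmn2r4 higher in 6 of 8 libraries by 0.077 ± 0.090 (exact permutation p = 0.0547, same value adjusted). With female pool 1 or female pool 2 left out, this pair passed as well, giving 15 of 15.

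All measured members but Vmn2r5 were among the highest Vmn2r genes of every library. Ranked by RPKM among 121 intact Vmn2r genes, Vmn2r6 was first in 7 of 8 libraries and second in female pool 2. Vmn2r2 ranked 3 or 4, Vmn2r4 5 or 6, Vmn2r1 5 to 7 and Vmn2r3 8 or 9. Vmn2r5, the exception, ranked between 39 and 50. These ranks depend on length, because the other genes were mostly counted over longer exons, and 2 further rankings were added after the values were seen. By CPM, with no length correction, Vmn2r6 was first in 2 of 8 libraries and otherwise 2 or 3, and by RPKM over coding length it was 2 or 3 in every library. Vmn2r1, Vmn2r2 and Vmn2r4 ranked 3 to 9 and Vmn2r3 11 to 16 by these measures. Both can rank the members too low, because the members were counted over coding exons and most other genes over longer exons. RPKM over counted exons can rank them too high, if those longer exons hold few reads. Vmn2r5 ranked 82 to 91 by CPM and 82 to 92 over coding length, so its place above or below the middle of the family is not settled by these data. By RPKM over counted exons, the other intact genes with the highest mean levels were Vmn2r89 on chromosome 14 (31.6 RPKM), Vmn2r-ps159 on chromosome 4, annotated as protein-coding despite its name (24.96 RPKM), and Vmn2r88 on chromosome 14 (20.6 RPKM). On that scale 3 other intact genes, or 4 in female pool 2, lay above Vmn2r3, and between 33 and 44 lay above Vmn2r5, against 76 to 85 by CPM.

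The median RPKM of the 6 members divided by the median of the 115 other intact Vmn2r genes was 18.8 in male pool 1, 17.4 in male pool 2, 16.7 in female pool 1 and 16.8 in female pool 2. In flushed mice it was 13.6 in female 2, 15.5 in female 3, 15.1 in male 1 and 15.3 in male 3. The ratio was thus lower in every flushed library than in every pool, and its median over the 8 libraries was 16.1. Its size depended on how length was treated. The counted exons of 5 members had exactly their coding length and those of Vmn2r3 had 2748 bases against 2730, whereas 107 of the 115 other genes were counted over exons totalling more than 1.5 times their coding length (median exon length 8487 bases), so an RPKM of theirs is an average over longer transcripts. With coding length for all genes the median ratio was 4.69, and with no length correction 5.01. Against the 8 other genes whose counted exons lie within 1.5 times their coding length, a comparison added after seeing the data, it was 5.58. The family C level was above the other Vmn2r median under each of these measures, by between 4.69 and 16.1 times. These measures can err in opposite directions. The M21 transcripts of the 6 measured members have 5055 to 9525 bases, so reads outside their coding exons were not counted. Most other genes keep such reads, so coding length and no length correction can set family C too low beside them. RPKM over counted exons can set family C too high, if the longer exons of the other genes hold few reads. How evenly those exons were covered was not tested, so the size of the ratio is not settled. The members' share of the summed RPKM of intact Vmn2r genes, pseudogenes left out, also depended on length. It was 28.9 to 32.0% per library (median 30.8%), against a median of 14.25% with coding length and 15.5% of counts.

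**Figure D2:**
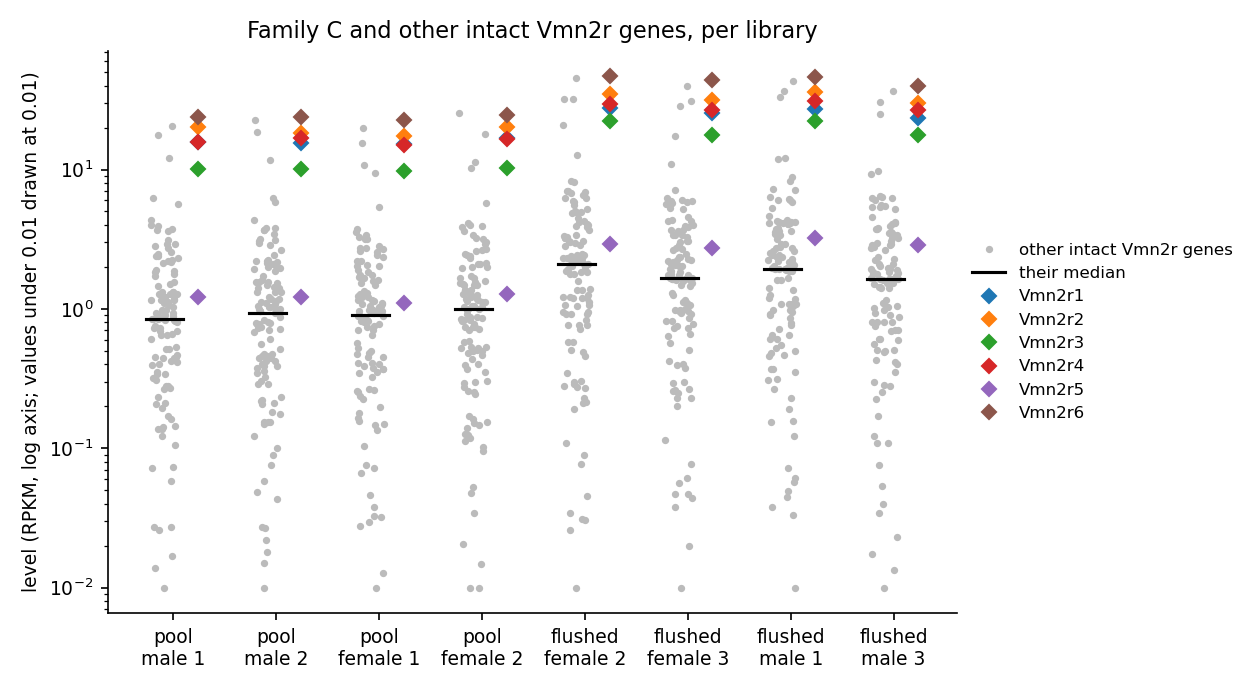
Levels of the 6 measured family C genes and of 115 other intact Vmn2r genes in each of the 8 libraries, in RPKM on a log axis. Grey points are single genes, black lines their median and coloured diamonds the family C genes. Apart from Vmn2r5 (1.10 to 3.25 RPKM) the members lie near the top of every library.

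The next comparison set the 4 flushed mice against the 4 non-flushed pools, in CPM (counts scaled to a common library size), tested with edgeR over all genes. All 6 members were higher in flushed mice, by 1.63-fold (Vmn2r1) to 2.45-fold (Vmn2r5). For scale, 22.6% of the 20601 genes tested were called higher in flushed mice, and 89.3% of the 112 other intact Vmn2r genes tested (100 genes) were. The 6 members thus rose together with most of the Vmn2r family. In bulk tissue, more cells of a type and more RNA per cell cannot be told apart.

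Vmn2r1, the member known from its own set of basal neurons, had 43.3, 42.8, 41.5 and 46.4 CPM in male pools 1 and 2 and female pools 1 and 2, and 75.7, 69.5, 74.5 and 64.4 CPM in flushed female 2, female 3, male 1 and male 3. The lowest flushed library was 1.39 times the highest pool. The log2 difference was 0.71 (SE 0.06, edgeR adjusted p = 4.01e-05), the smallest of the 6. Vmn2r2 had 54.7, 50.1, 47.6 and 55.5 CPM in the pools and 95.2, 86.6, 97.9 and 81.2 CPM in the flushed libraries, in the same order. The groups did not overlap, and the log2 difference was 0.80 (SE 0.08, edgeR adjusted p = 5.1e-05). Vmn2r3 had 27.9, 27.6, 26.7 and 28.0 CPM in the pools and 60.8, 48.4, 61.5 and 48.2 CPM in the flushed libraries. Its pools spanned a narrow range (SD 0.582 CPM), and its flushed libraries fell into a higher pair, female 2 and male 1, and a lower pair, female 3 and male 3. The same pair was higher for every other measured member. It was also higher for the summed CPM of the other intact Vmn2r genes (2710 and 2536 against 2348 and 2204). The log2 difference of Vmn2r3 was 0.99 (SE 0.09, edgeR adjusted p = 4.13e-05).

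Vmn2r4 and Vmn2r6 are 96.8% identical, and both were higher in every flushed library than in every pool. Vmn2r4 had 43.3, 46.1, 40.9 and 45.7 CPM in the pools and 81.1, 72.8, 85.5 and 73.8 CPM in the flushed libraries, a log2 difference of 0.83 (SE 0.07, edgeR adjusted p = 2.65e-05). Vmn2r6 had 64.9, 65.7, 62.4 and 67.2 CPM in the pools and 128, 120, 126 and 109 CPM in the flushed libraries, a log2 difference of 0.89 (SE 0.06, edgeR adjusted p = 1.8e-05). The 2 differences lie within their SEs of each other. Vmn2r5, the member of lowest level, had 3.30, 3.33, 3.01 and 3.52 CPM in the pools and 7.94, 7.51, 8.88 and 7.86 CPM in the flushed libraries. Its lowest flushed library was 2.14 times its highest pool, and its log2 difference of 1.29 (SE 0.11, edgeR adjusted p = 3.06e-05) was the largest of the 6. For all 6 members every flushed library lay above every pool, as it did for 21.3% of all genes tested.

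**Figure D3:**
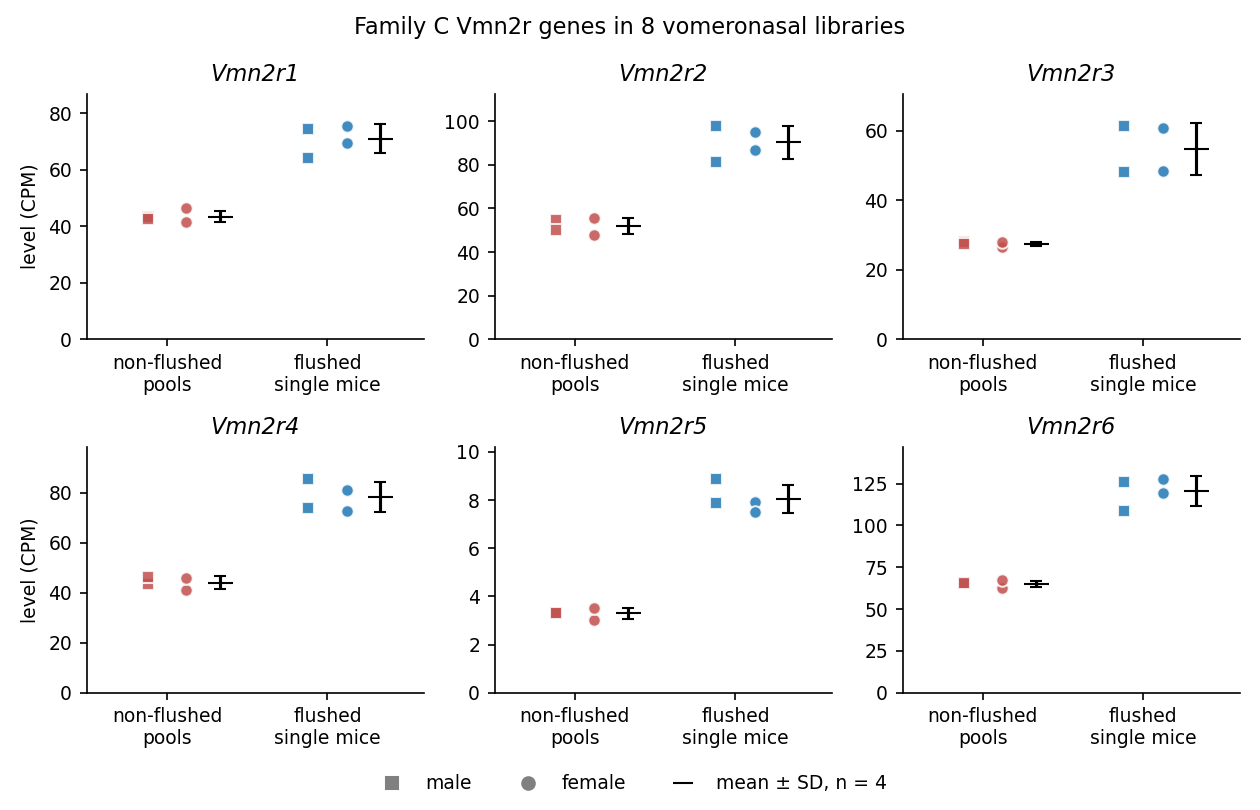
Level of each measured family C gene in the 8 libraries, in CPM, by preparation, with squares for males and circles for females. Bars are means ± SD over 4 libraries; each panel has its own axis from 0. In every panel the 4 flushed libraries lie above the 4 pools.

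Set beside the rest of the receptor family, 4 of the 6 members had a smaller difference than the median Vmn2r gene. The other intact genes had a median log2 difference of 0.96 with quartiles of 0.75 and 1.21. Of the 112 tested, 91 had a larger difference than Vmn2r1, 79 than Vmn2r2, 76 than Vmn2r4, 70 than Vmn2r6 and 46 than Vmn2r3, but only 12 than Vmn2r5. When the library size was taken over the other intact Vmn2r genes alone, which asks for the change relative to them, Vmn2r1 fell by 0.28 on the log2 scale (SE 0.07, edgeR adjusted p = 0.00252) and Vmn2r2 fell by 0.19 (SE 0.08, edgeR adjusted p = 0.0296). Vmn2r5 rose by 0.30 (SE 0.13, edgeR adjusted p = 0.0391). Vmn2r4 had a difference of -0.16 (edgeR adjusted p = 0.056), Vmn2r6 one of -0.098 (edgeR adjusted p = 0.211) and Vmn2r3 one of -0.0035 (edgeR adjusted p = 0.968), and these did not pass. By this measure 85% of all genes and 37.5% of the other intact Vmn2r genes were called in either direction, so 3 of 6 members is close to what the family shows. That scaling moves the median log2 difference of all genes from -0.02 to -1.002. With 85% of genes called, the adjustment over all genes hardly raises a p-value. The adjusted values under this library size are therefore close to unadjusted ones and give little protection against false calls.

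**Figure D4:**
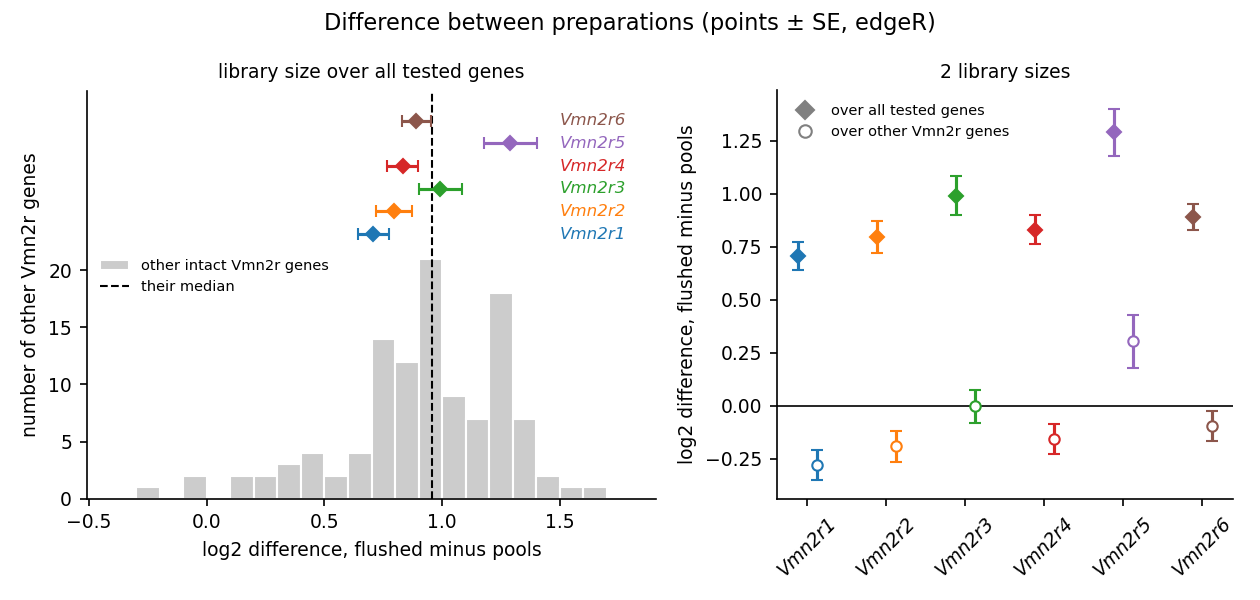
Log2 difference between flushed mice and pools. Left, the 112 other intact Vmn2r genes tested as a histogram, with the 6 family C genes above it (points ± SE, edgeR; their height has no meaning); right, the 6 genes with the library size taken over all tested genes (filled) or over the other intact Vmn2r genes (open). On the left 5 of the 6 genes lie near or below the dashed median of 0.96 and Vmn2r5 lies above it; on the right 5 genes fall to between -0.28 and 0, and Vmn2r5 stays above 0.

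Ratios between members were also compared, a comparison chosen after the values were seen. After adjustment 0 of 15 pairs passed, but the test had little room to pass any. The count of Vmn2r1 over the summed counts of Vmn2r2 to Vmn2r6 was 0.223 and 0.222 in male pools 1 and 2 and 0.230 and 0.232 in female pools 1 and 2. It was 0.203, 0.207, 0.196 and 0.201 in flushed female 2, female 3, male 1 and male 3, below every pool. Summed to 1 row, which rejoins the fractions of reads shared among them, Vmn2r2 to Vmn2r6 rose by 0.88 on the log2 scale (SE 0.07, edgeR adjusted p = 2.9e-05). Of the 15 ratios between pairs of members, 7 did not overlap between the preparations, among them all 5 that involve Vmn2r5. Vmn2r1 was 13.2 times the level of Vmn2r5 in pools and 8.82 times in flushed mice. Each of the 7 had the smallest p that 4 libraries against 4 allow (exact two-sided permutation test, p = 0.02857), and 0 passed after adjustment over the 15 pairs (adjusted p = 0.0612). With 7 pairs at the smallest p, the adjusted value could not be lower. The test therefore cannot decide whether these ratios changed. How often ratios of other genes fail to overlap is not given here.

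The rise of family C was set beside markers of the cells that carry it. Of 5 basal neuron markers, 0 were higher and 1 was lower in flushed mice (median log2 difference -0.20; 2 at an unadjusted p under 0.05). The gene that fell was Calr4, a calreticulin found in vomeronasal neurons, from 154 ± 16.0 to 126 ± 14.2 CPM (n = 4 each, log2 difference -0.29, edgeR adjusted p = 0.029). Gnao1, which encodes the G protein subunit of basal neurons, went from 57.8 ± 2.12 CPM in pools to 52.1 ± 4.82 CPM in flushed mice without passing the test (n = 4 each, edgeR adjusted p = 0.0858). Of the 9 H2-Mv genes, H2-M9 was higher (8.15 ± 0.537 against 10.31 ± 1.20 CPM, n = 4 each, edgeR adjusted p = 0.025) and 0 were lower, with a list median of -0.0089. The family C members had a median of 0.86 over the 6 measured genes, and all genes tested one of -0.02. The share of all tested genes called lower in flushed mice is not given here. Counts of lower genes in this list and those below therefore lack that scale.

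The summed CPM of the 6 members lay between 222 and 246 in pools, whereas it reached 384 to 455 in flushed mice. The basal list summed to 314 to 351 CPM in pools and 280 to 313 CPM in flushed mice. Family C over the basal list thus stood at 0.702 to 0.744 in pools against 1.36 to 1.53 in flushed mice, and family C over the H2-Mv list 0.915 to 1.11 and 1.70 to 1.91. Neither ratio overlapped between the preparations. Calr4 was the largest part of the basal sum, at 154 CPM in pools and 126 CPM in flushed mice. Among 8 genes of neurons of both layers, 7 were tested, of which 0 were higher and 3 lower. Itpr3, an inositol trisphosphate receptor, fell by 0.29 on the log2 scale (edgeR adjusted p = 0.00792), Ano1, a calcium-activated chloride channel, fell by 0.20 (edgeR adjusted p = 0.0242) and Plcb2, a phospholipase of the transduction pathway, fell by 0.28 (edgeR adjusted p = 0.0462). Omp, the marker of mature sensory neurons, was measured at 417 ± 57.2 CPM in pools beside 375 ± 28.0 CPM in flushed mice (n = 4 each, edgeR adjusted p = 0.235). Trpc2, the transduction channel of these neurons and a defining marker, is listed at 0 in all 8 libraries. Of its annotated exon bases, 97.5% also belong to the read-through gene Xntrpc on chromosome 7, and reads that overlap more than 1 gene were not counted. Xntrpc itself was at 27.1 ± 3.94 CPM in pools, beside 26.5 ± 2.04 CPM in flushed mice (n = 4 each, edgeR adjusted p = 0.825).

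**Figure D5:**
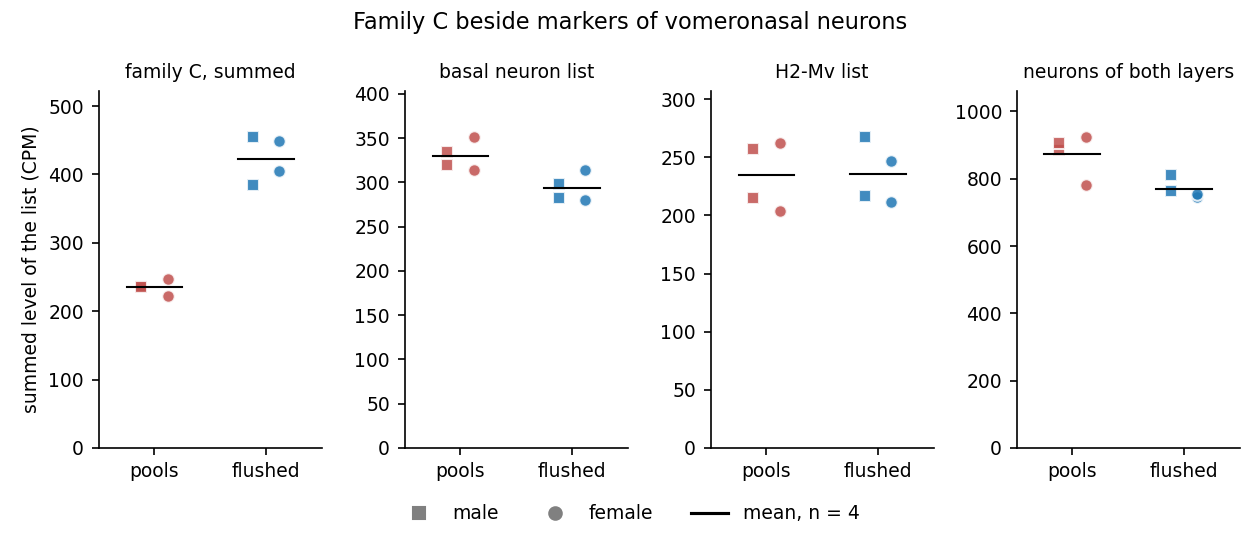
Summed level in CPM, per library, of the 6 measured family C genes, of 5 basal neuron markers, of 9 H2-Mv genes and of 8 genes of neurons of both layers, by preparation, with squares for males, circles for females and lines for means. Family C runs from 222 to 246 CPM in pools and from 384 to 455 CPM in flushed mice, while the H2-Mv sums overlap.

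Markers of other cells moved with the preparation as well, and their part in the family C difference was not tested. All 7 red cell genes fell, and their sum was 1646 to 2053 CPM in pools, 105 and 114 CPM in flushed females 3 and 2 and 599 and 621 CPM in flushed males 1 and 3. Hbb-bs, a haemoglobin gene, fell by 2.84 on the log2 scale (edgeR adjusted p = 0.000249), Alas2, an enzyme of haem synthesis, by 2.32 (edgeR adjusted p = 0.000218) and Hbb-bt by 2.74 (edgeR adjusted p = 0.00034). Of 6 connective tissue genes 4 fell and 2 rose. The fibrillar collagen genes Col3a1, Col1a1 and Col1a2 fell by 1.06, 1.30 and 1.09 (edgeR adjusted p = 1.44e-05, 1.74e-05 and 3.68e-05), and the list summed to 36477 to 47221 CPM in pools and 17150 to 23054 CPM in flushed mice. Of 4 gland genes 3 fell, among them Obp2b by 0.41, Lcn3 by 0.35 and Obp2a by 0.23 (edgeR adjusted p = 0.00231, 0.00547 and 0.04). Their sum ranged over 96142 to 164625 CPM in pools against 77534 to 122728 CPM in flushed mice.

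Of 6 genes of apical neurons, the layer that uses Vmn1r receptors, Meis2 rose by 0.24 (edgeR adjusted p = 0.00739), and Pde4a and Gnai2 fell by 0.41 and 0.36 (edgeR adjusted p = 0.00113 and 0.0105). Of 6 genes of immature neurons and dividing cells 4 were tested. Mki67, a proliferation marker, fell by 0.89 and Gap43, a growth cone protein, fell by 0.52 (edgeR adjusted p = 0.00357 and 0.0244). Neurog1, a transcription factor of neuronal progenitors, averaged at most 0.216 CPM in either preparation and was not tested.

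The comparison of sexes called no member. Vmn2r5 had the largest log2 difference, male minus female, at 0.077 (SE 0.109, edgeR adjusted p = 0.91), from a female mean of 5.49 ± 2.59 CPM and a male mean of 5.84 ± 2.95 CPM (n = 4 per sex, both preparations together). Vmn2r1 had the most negative, -0.048 (SE 0.064, edgeR adjusted p = 0.902). By edgeR 0 of 6 members were called, 0 had an unadjusted p under 0.05, and DESeq2 and limma-voom also called 0. Over all genes 0.116% were called by sex. In the lists, Obp2a and Lcn4 of the 4 gland genes were higher in males (log2 difference 0.57 and 0.53, edgeR adjusted p = 0.0301 and 0.0276). By edgeR 0 of the basal, apical, both-layer, H2-Mv, immature, red cell and connective tissue genes were called, with 7 red cell, 2 both-layer and 2 connective tissue genes at an unadjusted p under 0.05 and 0 in the other 4 lists.

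The difference between preparations was of like size in both sexes. In females alone it ran from 0.74 for Vmn2r1 to 1.26 for Vmn2r5 on the log2 scale, and in males alone from 0.68 to 1.32 for the same genes (2 libraries against 2, edgeR adjusted p at most 0.00711). The interaction of sex and preparation lay between -0.086 for Vmn2r6 (SE 0.131) and 0.093 for Vmn2r5 (SE 0.236), and edgeR called 0 of 6 members, with 0 at an unadjusted p under 0.05 and 0 called by DESeq2 or limma-voom. Over all genes 0.0485% were called for the interaction. Those 10 genes included 5 of the 7 red cell genes, in which the fall was smaller in males.

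The spread of each member between libraries of the same group was also measured. As the SD of log2(CPM + 0.5) left after removing the 4 group means, the spread was 0.092 for Vmn2r6, 0.094 for Vmn2r5, 0.10 for Vmn2r1, 0.11 for Vmn2r4, 0.14 for Vmn2r2 and 0.17 for Vmn2r3. The median of the 6 was 0.108, beside 0.148 for 100 other intact Vmn2r genes and 0.121 for 15489 genes of any kind, each with 50 or more counts per library on average. In that set of other Vmn2r genes, 69 varied less than Vmn2r3. This spread includes counting noise, which is larger at low counts. Members other than Vmn2r5 had 480 to 3184 counts per library, and the compared genes were not matched to them for depth. The lower median of the members therefore cannot be read as steadier expression.

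Outside the Vmn2r family, the genes whose log2 levels over the 8 libraries were most like the mean of the members were Ppp3cb, a catalytic subunit of calcineurin (Pearson r = 0.997), Paip1, a partner of the poly(A)-binding protein (0.997), Gm14698 (0.997), Selenot, a selenoprotein (0.997), and Tial1, an RNA-binding protein (0.996). The 8 points share the division into 2 preparations, and each of these genes was itself higher in flushed mice, by 0.47 to 0.90 on the log2 scale. After the 4 group means were removed, other genes came first: D430040D24Rik, Ppp1ccb, Maged2, Acp1 and Ywhaq (r = 0.997 to 0.998). With 2 libraries per group, what is left in a group is equal and opposite. Each such r therefore rests on 4 independent values, and values near 1 come easily. These genes were the highest of 15817 compared, so the values describe these libraries only. By the same measure, with the same limit, the members followed the mean of the other members with r of 0.866 (Vmn2r3) to 0.993 (Vmn2r1). Reads divided between members can add to this likeness, which was not tested.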

How the data were processed

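Libraries were polyA-selected and stranded, with single-end reads of 100 bases, per the labels' protocols. The submitters' processing notes name STAR 2.7.1a, featureCounts 1.6.5 and the build GRCm38 (mm10). Per the file headers, the deposited expected counts come from reverse-stranded counting over exons, in which each of several alignments of a read adds a fraction, reads on more than 1 gene are left out and no normalization is applied. Fractional values made up 10.2 to 11.8% of genes per library.

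Symbols came from GENCODE M21 (48336 of 48831 genes). Counts were rounded and tested with edgeR 4.0.16 under R 4.3.3 (quasi-likelihood F test, TMM, filterByExpr on the 4 groups, sex and preparation as additive terms, Benjamini-Hochberg over 20601 genes, threshold 0.05), and the interaction was a further fit. SEs of log2 differences were derived from the F statistic. CPM and RPKM are unrounded. On simulated data for the preparation comparison, 89% of 200 genes changed 1.5-fold and 99.5% of those changed 2-fold were recovered. The simulation gave all genes the same spread and changed only genes of higher count, equally up and down. Real data differ in these respects, so the rates check the procedure and do not measure its sensitivity here. Coding sequences were read from the M21 transcripts and aligned with MAFFT 7.526. Replicates are separate mice or pools, per the labels.

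Alternatives were DESeq2 1.42.0, limma-voom (limma 3.58.1), RLE factors, no filter on low counts, Vmn2r2 to Vmn2r6 summed, another library size, other lengths (for the ranks too) and comparator genes, and each library left out. The members and gene lists (basal, apical and both-layer neurons, H2-Mv, immature, red cell, connective tissue and gland genes) were chosen with earlier results of these data known. The text names all members, the 3 other Vmn2r genes of highest mean RPKM, up to 3 genes with the smallest p per list among those that passed, any list gene that passed by sex, and the 5 genes most like the members, with and without group means (mean log2 CPM at least 1). Gnao1, Omp, Trpc2, Xntrpc, Neurog1 and the genes that neighbour the cluster lie outside that rule and were named after their values were seen. A withheld marker gene is not reported here.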

Additional observations from a re-analysis of the deposited data

How the results depend on the processing

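The 6 members kept their call and direction between preparations with DESeq2, limma-voom, RLE factors, no filter on low counts, within females, within males and without any 1 of the 8 libraries (6 called in each fit, edgeR adjusted p at most 0.000401 with a library left out), and 0 were called by sex or for the interaction with the same tools and settings, or with any 1 library left out; by sex 0 were called within pools or within flushed mice. With the library size over the other intact Vmn2r genes, 3 of 6 were called and 5 log2 differences turned negative: -0.28 for Vmn2r1, -0.19 for Vmn2r2, -0.16 for Vmn2r4, -0.098 for Vmn2r6 and -0.0035 for Vmn2r3. That size removes any change common to the Vmn2r genes by construction. The ratio of median RPKM, 16.1, was 15.6 among genes past the filter, 4.69 with coding length, 5.01 with no length correction, 5.58 against the 8 genes of near-coding exon length (chosen after seeing the data), 46.3 with pseudogenes and 15.5 to 16.7 with a library left out. The share of the summed RPKM of intact Vmn2r genes, 30.8%, was 14.25% with coding length, 15.5% with no length correction and 30.4 to 31.2% with a library left out. The order of levels had 14 to 15 of 15 pairs past the test with a library left out and 14 with coding length. No paired analysis was possible because the labels give the pools no replicate number (theirs follow listed order) and the flushed males and females share only the number 3. Depth limits Vmn2r5 most, at 58.0 to 224.1 counts per library against 480 to 3184 for the other members.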

Other observations

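The family C cluster on chromosome 3 also holds pseudogenes of the family, which were counted beside the members. Vmn2r-ps5 (64339565 to 64357724, minus strand, GRCm38), annotated as a polymorphic pseudogene, averaged 1.02 CPM in pools, against 3.12 CPM in flushed mice, a log2 difference of 1.61 (SE 0.18, edgeR adjusted p = 0.000119). Vmn2r-ps11 (64632574 to 64662261, minus strand), the pseudogene that shares 49.4% of the Vmn2r5 windows, had 2.29 and 3.65 CPM, a log2 difference of 0.68 (SE 0.15, edgeR adjusted p = 0.00523). Both lay below Vmn2r5, which averaged 3.29 CPM in pools, against 8.05 CPM in flushed mice, at counted lengths of 2730 bases against 2736. Gm20656 and Gm20657, pseudogenes on the plus strand, were tested and did not pass (log2 difference 0.56 and 0.36, edgeR adjusted p = 0.0804 and 0.31). Gmps, an enzyme of guanine nucleotide synthesis whose gene flanks the cluster, was higher in flushed mice by 0.68 on the log2 scale (51.0 against 81.9 CPM, edgeR adjusted p = 6.24e-05). For scale, 22.6% of all genes tested were called higher in flushed mice.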
